A study of Mus musculus with 6 samples.

Results

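Among the 25899 genes of the deposited table, 38 had a level in every polysomal (P) library above their level in every non-polysomal (NP) library and above 5 FPKM. FPKM is a number of reads scaled to the exon length of the gene and to the reads mapped in the library. In other words, the lowest of the 3 P values exceeded the highest of the 3 NP values. *Lars2*, *Gm15564* and symbols of predicted genes, zinc finger genes, kinesins, ribosomal and mitochondrial ribosomal proteins, proteasome subunits and initiation factors were left out by name, which removed 9 of the 47 genes that met the values. The 38 genes are thus selected on the P and NP values themselves, so the gap between the fractions is described here and was not tested.

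The libraries came from fully grown oocytes of CD1 mice aged 58 weeks (AF), taken after PMSG injection, held in IBMX, and cultured without it for 180 minutes so that they had passed nuclear envelope breakdown (NEBD). The paper gives the age and the strain of these mice differently from the sample labels. All 6 libraries shared the treatment with cycloheximide at 0.1 mg/ml, which holds ribosomes on the mRNA, and each sample was prepared from 200 oocytes. Fractions of a sucrose gradient were pooled into an NP and a P part of each sample, depleted of rRNA, amplified as a whole transcriptome and sequenced, with 3 libraries (replicates 1 to 3) of each part. Nothing in the labels says whether the replicates came from separate groups of animals, so their spread may be partly technical. The oocytes of young females (YF) were not analysed here.

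A full-grown oocyte no longer transcribes its genome, and meiosis runs on mRNA stored during growth. Stored mRNA sediments with the light, non-polysomal part of a gradient, while mRNA carrying several ribosomes sediments with polysomes. By the paper's definition the NP part also holds RNA bound to monosomes (single ribosomes), so it is not stored mRNA alone. Some stored mRNAs enter polysomes at meiotic resumption through cytoplasmic polyadenylation, for which the 3′UTR carries a cytoplasmic polyadenylation element, bound by CPEB proteins, near the polyadenylation hexamer. Because every value is a share of its own library, a higher FPKM in P says that a transcript took a larger share of the polysomal reads than of the non-polysomal reads, and not which fraction held more molecules. In such bulk libraries, fewer oocytes with a transcript and less of it per oocyte cannot be told apart.

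The ends of 5 of the 38 mRNAs are shown because a hexamer in the last 40 bases and an element of this kind lie together there within 30 bases, as they did in 13.5% of the 37 members with an annotated 3′UTR, 10.1% of the genes with a lowest P value above 5 FPKM and 7.17% of all genes. *Ddx3x* and *Cul1* also carry such a pair, but farther from the end, and are not shown. The 5 encode a Cdk1 partner, a spindle protein, a cytokinesis protein, a relative of a tubulin cofactor and a histone methyltransferase. Capitals mark the element (TTTTAT or TTTTAAT) and the hexamer (AATAAA), read 5′ to 3′ on the sense strand of GENCODE M21 transcripts on GRCm38. *Cks2* is read at chr13:51650609-51650638 on the plus strand, *Spag5* at chr11:78322416-78322445 on the plus strand, *Tbccd1* at chr16:22813227-22813256 on the minus strand, *Anln* at chr9:22332025-22332054 on the minus strand and *Suv39h2* at chr2:3455824-3455853 on the minus strand, and all 5 windows lie in the 3′UTR.
Cks2: gTTTTATtttacctgttttgttaAATAAAg
Spag5: ccatgTTTTATgttatttaAATAAAgtgta
Tbccd1: gtttcacTTTTAATcttAATAAAaggtttc
Anln: aaagtaTTTTATgacataAATAAAtaattg
Suv39h2: ctttttTTTTAATaacagAATAAAcaccat
The element preceded the hexamer in each, by 16 bases in *Cks2*, 8 in *Spag5*, 3 in *Tbccd1*, 6 in *Anln* and 5 in *Suv39h2*.

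Read depth differed widely between the libraries and bears on every value below. Depth was estimated from the steps between low FPKM values, at between 1237799 and 18096676 reads in the NP libraries and between 163822 and 1549317 reads in the P libraries, with the lowest in P replicate 1. A transcript of 2 kb with 3 reads would stand at 9.16 FPKM in P replicate 1, but at 1.31 and 0.968 FPKM in P replicates 2 and 3 and between 0.0829 and 1.21 FPKM in NP. Markers matched the label of the tissue, since 21 of 24 oocyte genes had a lowest P value above 5 FPKM, and their summed level was between 9429 and 24406 FPKM in P and between 21296 and 22672 FPKM in NP. Summed FPKM of 19 granulosa and cumulus cell genes was between 2.65 and 16.5 in P and between 11.2 and 131 in NP, with 13 of the genes, *Fshr*, *Foxl2*, *Amh* and *Inha* among them, at 0 in every P library. *Cyp19a1* made up most of these sums in P replicate 1 and in NP replicate 3, at 15.4 and 104 FPKM, and *Nr5a2* was at 5.71 FPKM in P replicate 2 and 26.9 in NP replicate 3. The part of such cells in the members' values was not tested. For 12 blood cell genes these sums were between 0 and 8.07 in P and between 0.388 and 16.5 in NP, and for 4 nuclear non-coding RNAs between 0 and 3.50 in P and between 0 and 1.46 in NP. No gene of these marker lists was among the 38.

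The 38 genes were 0.179% of the 21231 genes left once the names were removed, and 1.74% of the 2186 genes whose lowest P value was above 5 FPKM. With the fractions exchanged in the rule, 1441 genes qualified, which is 6.79% of the 21231 genes and 39.0% of the 3691 genes whose lowest NP value was above 5 FPKM. As the rule fixed these counts, nothing is read from them beyond how large each set is. The scale of the libraries also moved with the fraction, as the FPKM of all genes summed to between 246182 and 393876 in the P libraries and to between 597261 and 633110 in the NP libraries. With each library rescaled to a common sum, 245 genes met the rule, and with each P value held only against the NP value of its own replicate number, 103 did.

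**Figure D1:**
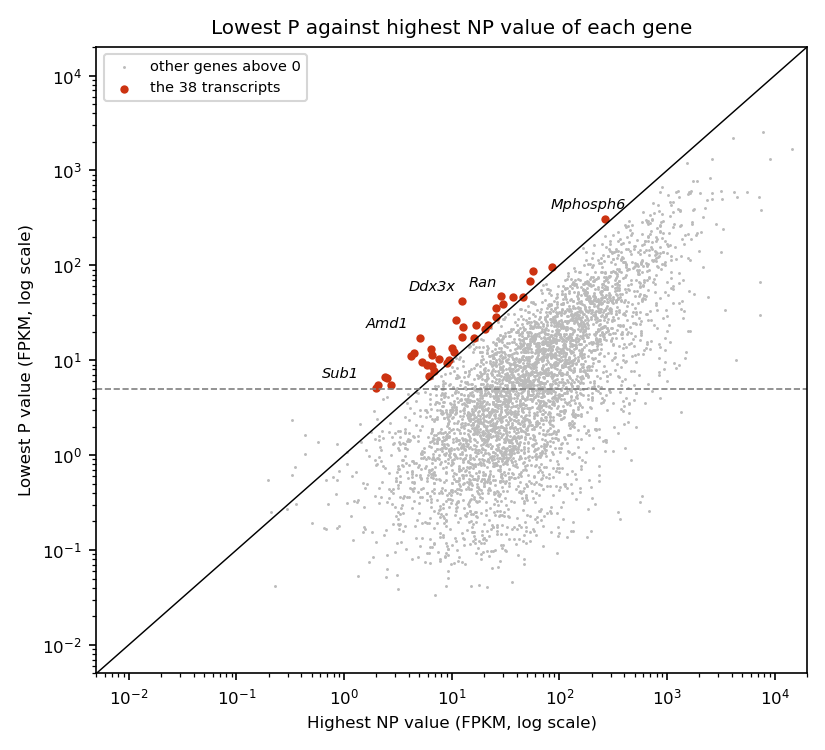
Each point is a gene above 0 on both axes (genes left out by name are not drawn), with its highest NP value on the x axis and its lowest P value on the y axis (both FPKM, log scales). The solid line marks equal values and the dashed line 5 FPKM, and the 38 transcripts in red sit above both lines, from *Sub1* with a lowest P value of 5.09 to *Mphosph6* at 304.

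Members spanned a wide range of levels. Their mean P level ran from 7.17 FPKM (*Pdp1*) to 489 FPKM (*Mphosph6*) with a median of 32.0, below the median of 44.9 of the 2186 genes that passed the same floor. *Mphosph6*, *Calm2* and *Trim61* were above 100 FPKM and 10 members were above 50. Together the 38 made up 0.539%, 0.635% and 0.549% of the summed FPKM of P replicates 1, 2 and 3, and 0.125%, 0.117% and 0.0555% of NP replicates 1, 2 and 3. The difference of the mean log2(FPKM + 1) between P and NP ran from 0.50 (*Trim61*) to 3.83 (*Mtmr6*), with a median of 2.04. These sizes depend on the scale, as *Trim61* was between 1.42 and 1.55 under the other scalings and at 0.33 without NP replicate 2. *Mtmr6* was at 5.23 with a pseudocount of 0.1 and at 2.45 with a pseudocount of 5. Over the 2186 genes the same median was -0.73, and over the 10578 genes with a mean above 1 FPKM in either fraction it was -1.03.

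**Figure D2:**
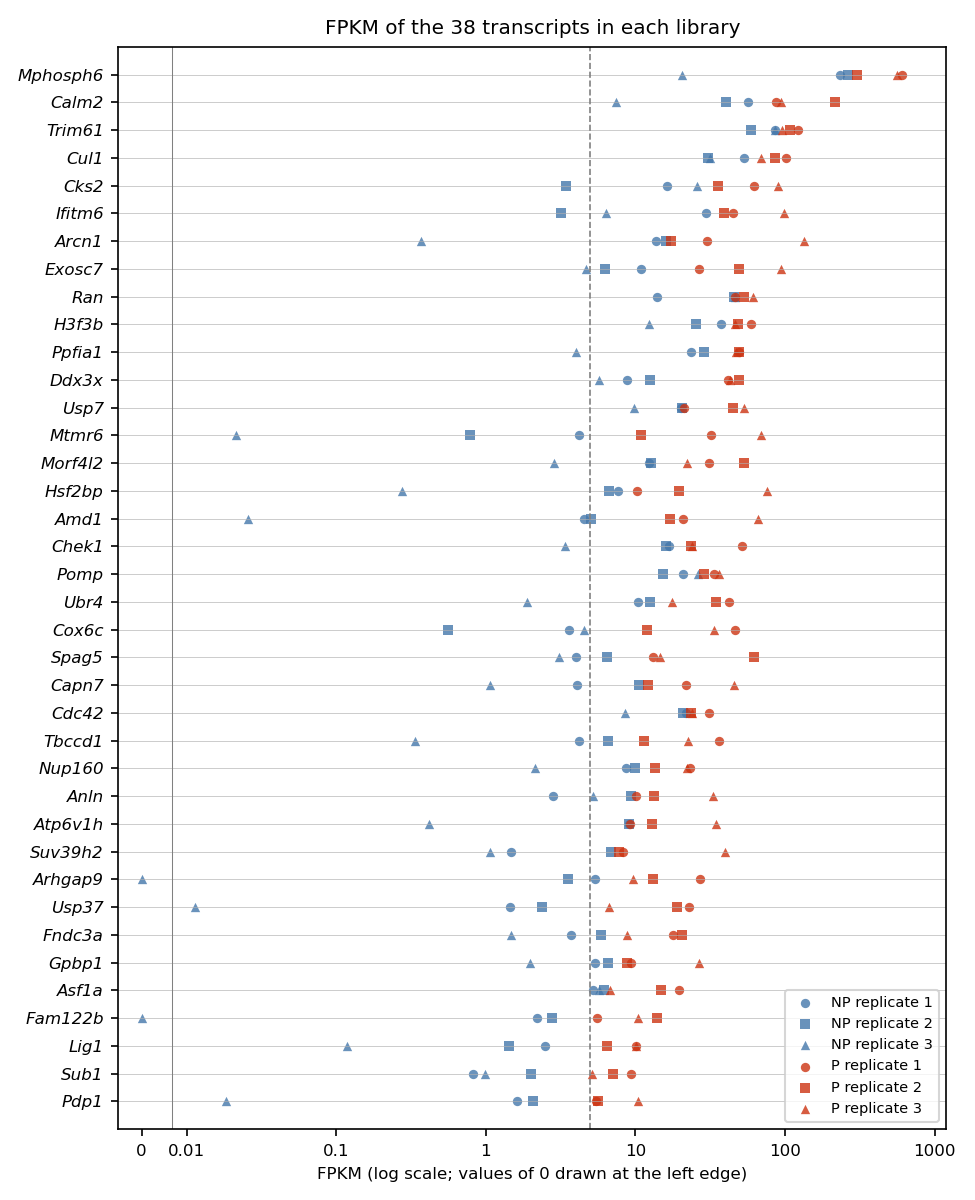
FPKM of each of the 38 transcripts in the 6 libraries (x axis, log scale, with values of 0 drawn at the left edge), ordered from top to bottom by the mean of the P libraries. Blue marks are NP and red marks are P, with circles, squares and triangles for replicates 1, 2 and 3, and the dashed line stands at 5 FPKM. NP replicate 3 is the leftmost mark of 28 of the 38 transcripts.

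The roles below were assigned after the members were listed. mRNAs of RNA-processing proteins included the most abundant transcript of the set. *Mphosph6* (chromosome 8, 117791645 to 117801929, minus strand), an M-phase phosphoprotein that works with the nuclear RNA exosome, was at 602, 304 and 559.7 FPKM in P replicates 1, 2 and 3 and at 232, 265 and 20.5 FPKM in NP. Its means were 489 ± 161 in P and 172.5 ± 133 in NP (SD, n = 3), and NP replicate 3 was far below NP replicates 1 and 2. *Exosc7* (chromosome 9, 123113215 to 123136129, plus strand), a ring subunit of that exosome, was at 26.5, 49.0 and 94.2 FPKM in P and at 11.0, 6.24 and 4.65 in NP. *Ddx3x* (chromosome X, 13280970 to 13294052, plus strand) encodes a DEAD box RNA helicase that helps the translation of mRNAs with structured leaders. It was at 41.6, 49.6 and 43.2 FPKM in P and at 8.73, 12.6 and 5.72 in NP, so that its lowest P value was 3.31 times its highest NP value, and its P libraries lay within 1.19-fold of each other. Of 54 genes taken as DEAD and DEAH box helicases by their symbols, *Ddx3x* was the only member, and 4 met the rule with the fractions exchanged. The shares over all 21231 genes were 0.179% and 6.79%. Initiation factors, left out by name, are not covered by this count, and *Eif4a2* among them met the values.

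Several transcripts for the meiotic cell cycle, spindle and cytokinesis were present. *Cks2* (chromosome 13, 51645232 to 51650660, plus strand) encodes a small Cdk1-binding protein that mouse oocytes need to leave metaphase I. Its levels were 61.7, 35.4 and 89.5 FPKM in P and 16.3, 3.43 and 25.7 FPKM in NP, with means of 62.2 ± 27.1 and 15.2 ± 11.2 (SD, n = 3). Every P value lay above every NP value, but the lowest P value, in replicate 2, was 1.38 times the highest NP value. *Spag5* (chromosome 11, 78301529 to 78322457, plus strand), which encodes the spindle protein astrin, was at 13.02, 61.8 and 14.7 FPKM in P and at 4.02, 6.47 and 3.09 in NP. P replicate 2 alone stood apart, 4.75-fold above the lowest P library. *Anln* (chromosome 9, 22331214 to 22389206, minus strand), for the contractile ring scaffold anillin, was at 10.1, 13.4 and 33.2 FPKM in P and at 2.83, 9.37 and 5.17 in NP. Here P replicate 1 and NP replicate 2 came within 1.08-fold of each other.

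*Ran* (chromosome 5, 129020069 to 129024323, plus strand), the GTPase that directs nuclear transport and spindle assembly around chromosomes, had the smallest gap of all members. It was at 46.14, 53.3 and 61.5 FPKM in P and at 14.0, 45.7 and 46.08 in NP, so only NP replicate 1 stood clearly below the P libraries. *Cdc42*, which acts in cell polarity and polar body formation, had a similarly modest separation, at 30.9, 23.6 and 23.9 FPKM in P and at 21.8, 20.7 and 8.53 in NP. *Chek1* (chromosome 9, 36708482 to 36727065, minus strand), the checkpoint kinase that answers DNA damage, was at 51.2, 23.6 and 23.9 FPKM in P and at 16.9, 15.9 and 3.39 in NP. Its P replicate 1 stood above the other P libraries, which were level with each other.

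Further members have related roles. *Hsf2bp*, for a partner of Brca2 in meiotic recombination, was at 10.3, 19.4 and 75.3 FPKM in P and at 7.61, 6.69 and 0.277 in NP, a 7.34-fold spread among the P libraries. *Nup160*, for a scaffold nucleoporin that also sits at kinetochores, was at 23.0, 13.6 and 22.2 FPKM in P and at 8.67, 9.97 and 2.15 in NP. *Tbccd1*, for a protein related to a tubulin folding cofactor, was at 36.1, 11.3 and 22.5 FPKM in P and at 4.19, 6.56 and 0.336 in NP. NP replicate 3 was the lowest library of each of these 3 genes. *Ppfia1*, for the scaffold protein liprin alpha 1, had the most even P values of the set, at 49.5, 49.0 and 46.9 FPKM, against 23.5, 28.7 and 4.02 in NP. *Arhgap9* was at 27.0, 13.1 and 9.62 FPKM in P, at 5.35 and 3.54 in NP replicates 1 and 2, and listed at 0 in NP replicate 3.

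Lists of pathways and families are given by their counts of genes whose names the rule does not remove, beside overall shares of 0.179% by the rule and 6.79% by the exchanged rule among the 21231 genes, and of 1.74% and 39.0% among genes above 5 FPKM in every library of the higher fraction. With 0, 1 or 2 members a list, nothing particular to a list is read from these counts. Of 28 genes for cyclins, Cdk1 and its regulators, 16 had a lowest P value above 5 FPKM, 1 was a member (*Cks2*) and 4 met the exchanged rule. Of 47 spindle and microtubule genes, 16 had a lowest P value above 5 FPKM, 2 were members (*Anln* and *Spag5*) and 7 met the exchanged rule. None of the 24 anaphase promoting complex and spindle checkpoint genes was a member, while 3 met the exchanged rule. For kinetochore and centromere genes the counts were 0 and 6 of 37, and for cohesin, condensin and recombination genes 0 and 1 of 35. No member was found among 44 genes of mRNA storage, deadenylation and translational control, with 8 by the exchanged rule, nor among 27 mTOR and insulin signalling genes, with 3. In these lists without members, in the order given, 10, 9, 4, 18 and 7 genes had a lowest P value above 5 FPKM. In a list of 10 mRNAs known for translation that depends on maturation, 9 had a lowest P value above 5 FPKM, 0 were members and 3 met the exchanged rule. That list includes *Mos*, the kinase that activates MAP kinase in oocytes, at 1036, 461 and 1231 FPKM in P and at 888, 1006 and 1072 in NP, where the groups overlap.

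**Figure D3:**
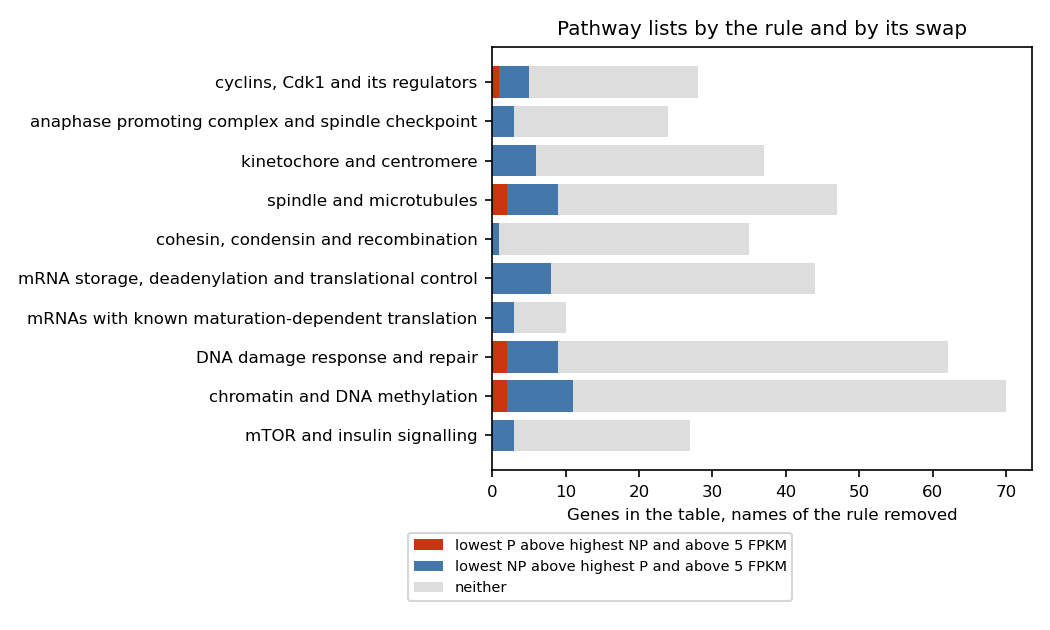
Bars give the number of genes of each pathway list in the table, names of the rule removed (x axis, count from 0), split into genes with the lowest P value above the highest NP value and above 5 FPKM (red), genes that met the rule with the fractions exchanged (blue) and the rest (grey). Red segments of 1 or 2 genes appear in 4 of the lists, and in each of the lists the blue segment is longer than the red one.

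DNA repair and chromatin genes gave 4 members of the lists. Of 62 genes of the DNA damage response and repair, 10 had a lowest P value above 5 FPKM, 2 were members (*Lig1* and *Chek1*) and 7 met the exchanged rule. Of 70 genes of chromatin and DNA methylation, 21 had a lowest P value above 5 FPKM, 2 were members (*Suv39h2* and *Asf1a*) and 9 met the exchanged rule. *Suv39h2* (chromosome 2, 3455815 to 3475031, minus strand), a histone methyltransferase of heterochromatin, was at 8.31, 7.75 and 39.8 FPKM in P and at 1.47, 6.92 and 1.07 in NP. Most of its mean P level of 18.6 ± 18.4 (SD, n = 3) came from P replicate 3. *Asf1a* (chromosome 10, 53596961 to 53609213, plus strand), for a histone chaperone, was at 19.6, 14.9 and 6.81 FPKM in P and at 5.19, 6.16 and 5.71 in NP. *Lig1* (chromosome 7, 13277283 to 13311433, plus strand), for the DNA ligase that joins replication fragments, was at 10.0, 6.48 and 10.1 FPKM in P and at 2.49, 1.43 and 0.119 in NP. Both groups of *Lig1* were low, and its lowest P value was 2.60 times its highest NP value.

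The close relatives of these genes in the same lists, picked after their values were seen, had other patterns. *Suv39h1* was higher in NP, at 62.5, 49.0 and 63.9 FPKM in P and at 132, 159 and 79.0 in NP, with no overlap. *Asf1b* was at 131, 18.4 and 99.7 FPKM in P and at 48.0, 61.0 and 83.6 in NP, and *Cks1b*, the other Cks gene, was at 16.3, 44.3 and 96.3 in P and at 96.1, 67.0 and 39.5 in NP. In both the groups overlapped, and the P libraries spanned the NP values.

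Other chromatin and transcription members were outside the lists or in a family. *H3f3b* (chromosome 11, 116021912 to 116027962, minus strand), for a replication-independent histone variant, was at 59.5, 48.3 and 46.4 FPKM in P and at 37.2, 25.6 and 12.3 in NP. It was the only member of 81 histone genes, of which 5 met the exchanged rule (0.179% and 6.79% over all genes). *Morf4l2*, for a subunit of histone acetyltransferase complexes, was at 31.2, 53.4 and 22.2 FPKM in P and at 12.4, 12.7 and 2.87 in NP. *Sub1*, for a transcriptional coactivator that binds single-stranded DNA, was at 9.32, 7.13 and 5.09 FPKM in P and at 0.822, 1.997 and 0.986 in NP. With its lowest P value nearest to 5 FPKM, *Sub1* marks the lower edge of the set. *Gpbp1*, for a protein that binds GC-rich promoters, was at 9.38, 8.75 and 26.4 FPKM in P and at 5.38, 6.57 and 1.96 in NP.

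Ubiquitin-pathway transcripts ranged from a ligase scaffold to enzymes that remove ubiquitin. *Cul1* (chromosome 6, 47453398 to 47526139, plus strand), the scaffold of SCF ubiquitin ligases, was at 101, 85.7 and 69.0 FPKM in P and at 53.2, 30.4 and 31.4 in NP. Its means were 85.2 ± 15.9 and 38.3 ± 12.9 (SD, n = 3), and NP replicate 1 stood above the other NP libraries. *Trim61* (chromosome 8, 65012976 to 65018688, minus strand), for a RING-type tripartite motif protein, was at 122, 108 and 95.5 FPKM in P and at 85.8, 59.6 and 85.7 in NP. It combined the highest NP mean after *Mphosph6*, 77.0 FPKM, with the smallest log2 difference of the set when all libraries were used. Without NP replicate 1, *Ran* was lower, at 0.21 against 0.59, and without NP replicate 3, *Cdc42* was lower, at 0.28 against 0.59. *Trim61* was the only member of 145 RING and TRIM genes, of which 15 met the exchanged rule. *Ubr4*, for a ligase that recognises N-degrons, was at 42.1, 34.4 and 17.6 FPKM in P and at 10.4, 12.6 and 1.87 in NP. *Pomp*, for the chaperone of proteasome assembly, was at 33.3, 28.6 and 36.1 FPKM in P and at 20.9, 15.3 and 26.1 in NP, an even level in both groups.

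Of 73 deubiquitinating enzyme genes, 2 were members and 8 met the exchanged rule. *Usp37*, whose enzyme stabilises cyclin A, was at 22.9, 19.11 and 6.64 FPKM in P and at 1.46, 2.38 and 0.0115 in NP. *Usp7*, whose enzyme acts on Mdm2 and other proteins, was at 21.2, 45.1 and 53.5 FPKM in P and at 20.3, 20.4 and 9.83 in NP. Their separation differed, since P replicate 1 of *Usp7* was within 1.04-fold of its NP replicate 2, while the lowest P value of *Usp37* was 2.79 times its highest NP value. Neither the 36 ubiquitin E2 genes nor the 76 F-box genes included a member, while 7 and 12 of them met the exchanged rule.

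Membrane, signalling and metabolic transcripts completed the set. *Amd1* (chromosome 10, 40287458 to 40302188, minus strand), for the decarboxylase that supplies polyamine synthesis, had the largest ratio of lowest P to highest NP value, 3.35. It was at 20.9, 16.9 and 66.4 FPKM in P and at 4.54, 5.05 and 0.0257 in NP. *Mtmr6* (chromosome 14, 60265205 to 60302370, plus strand), for a phosphoinositide phosphatase, was at 31.8, 11.0 and 68.7 FPKM in P and 4.21, 0.778 and 0.0215 in NP. Its log2 difference was the largest with all libraries, but without P replicate 3 *Usp37* was at 3.43 and *Mtmr6* at 3.23. For *Amd1* and *Mtmr6* the value in NP replicate 3 rests on a single read. *Cox6c* (chromosome 15, 35925886 to 35938246, minus strand), for a subunit of cytochrome c oxidase, was at 46.2, 12.03 and 33.5 FPKM in P and at 3.62, 0.558 and 4.51 in NP. Among 91 nuclear-encoded respiratory chain and ATP synthase genes it was the only member, and 31 met the exchanged rule, against 0.179% and 6.79% over all genes. Of all genes with a lowest NP value above 5 FPKM, 39.0% met the exchanged rule, so nothing particular to this family is read from the count.

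*Calm2* (chromosome 17, 87433412 to 87446935, minus strand), which encodes the calcium sensor calmodulin, was at 87.4, 215 and 94.2 FPKM in P and at 56.7, 40.4 and 7.36 in NP. *Arcn1* (chromosome 9, 44741564 to 44767845, minus strand), for a subunit of the COPI vesicle coat, was at 30.1, 17.3 and 134 FPKM in P and at 13.7, 16.1 and 0.366 in NP. With a 7.75-fold spread, *Arcn1* was the least even member across the P libraries, and its P replicate 2 was 1.07 times the highest NP value. *Ifitm6* (chromosome 7, 141015812 to 141016892, minus strand), of the interferon-induced transmembrane family, was at 45.1, 38.9 and 99.0 FPKM in P and at 29.9, 3.17 and 6.40 in NP. *Atp6v1h*, for a subunit of the vacuolar proton pump, was at 9.27, 12.9 and 34.6 FPKM in P and at 8.99, 9.12 and 0.417 in NP. Its P replicate 1 was level with NP replicates 1 and 2.

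The remaining transcripts were of moderate or low level. *Capn7*, for a calpain-type protease, was at 21.9, 12.2 and 45.5 FPKM in P and at 4.10, 10.6 and 1.06 in NP. *Fndc3a*, for a membrane protein with fibronectin domains, was at 17.8, 20.3 and 8.83 FPKM in P and at 3.74, 5.86 and 1.48 in NP. *Pdp1*, for the phosphatase that activates pyruvate dehydrogenase, was at 5.42, 5.64 and 10.5 FPKM in P and at 1.61, 2.07 and 0.0183 in NP. With *Sub1*, *Pdp1* and the next gene were the members closest to the floor of 5 FPKM. *Fam122b* was at 5.54, 13.9 and 10.4 FPKM in P, at 2.20 and 2.76 in NP replicates 1 and 2, and listed at 0 in NP replicate 3. Just below the floor, with the groups still apart, were *Btf3l4* with a lowest P value of 4.62 FPKM, *Serpini1* at 4.39 and *Pid1* at 4.12. Just short of a gap were *Txnrd3* with a lowest P value of 6.46 against a highest NP value of 6.51, *Wapal* with 6.45 against 6.59 and *Rnf2* with 14.1 against 14.7.

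The other gene families examined held no member, where the share over all 21231 genes was 0.179%. Among genes with a lowest NP value above 5 FPKM, 39.0% met the exchanged rule. By the exchanged rule, with 6.79% over all genes, they held 28 of 355 solute carriers, 16 of 229 Tmem genes, 11 of 97 Rab, Arl and Arf GTPases, 8 of 77 splicing factors, 6 of 84 chaperones, 6 of 36 aminoacyl tRNA synthetases, 8 of 121 zinc finger and BTB genes and 79 of 2215 genes with RIKEN clone names. Neither rule was met by any of 13 mitochondrially encoded genes, 7 small RNA genes or 1472 olfactory, vomeronasal and taste receptor genes. Of these genes only 1, a receptor, had a lowest P value above 5 FPKM, so nothing is read about their place on polysomes.

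How far the fractions lay apart differed between members. The lowest P value was at least 1.1 times the highest NP value for 31 of the 38 genes, at least 1.5 times for 17, at least 2 times for 11 and at least 3 times for 2, *Amd1* and *Ddx3x*. Among the P libraries, the highest value was within 2-fold of the lowest for 13 members, within 3-fold for 24 and within 5-fold for 34. The median SD of log2(FPKM + 1) among the P libraries was 0.67 for the members and 0.86 for the 2186 genes with a lowest P value above 5 FPKM. A gene with 1 low P value tends to fail the rule, so a smaller spread is favoured by the selection and nothing is read from it. The highest P value was in replicate 1 for 15 members, in replicate 2 for 6 and in replicate 3 for 17.

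NP replicate 3 was the library in which the members were low most often. Median member levels were 8.70, 8.02 and 2.98 FPKM in NP replicates 1, 2 and 3, and 28.5, 19.9 and 35.3 FPKM in P replicates 1, 2 and 3. For 28 of the 38 members (73.7%) NP replicate 3 held the lowest NP value, as it did for 61.7% of the 2186 genes. It was below 1 FPKM for 12 of the 38 members, against 4.12% of the 2186 genes. The rule asks for low values in every NP library, so these shares are a description of what was selected. Without NP replicate 3, 57 genes met the rule, 19 of them not members, and the median log2 difference of the members was 1.47 in place of 2.04.

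Reads behind the P values were fewest in P replicate 1 for all 38 members. The median member rested on 20.5 estimated reads there, 18 members on fewer than 20, 9 on fewer than 10, and *Pdp1* and *Fam122b* on 4 each. *Cks2* had 7, 28 and 96 reads in P replicates 1, 2 and 3, and *Suv39h2* had 6, 39 and 272. By contrast, *Mphosph6* had 244, 860 and 2147, *Ubr4* had 124, 706 and 492, and *Ppfia1* had 102, 702 and 913. As a description of counting error on the same values that chose the members, the lower bound of the exact 95% Poisson interval of every P library exceeded the highest NP value, taken as exact, for 20 of the 38. The bound fell short for *Calm2*, *Trim61*, *Cks2*, *Ifitm6*, *Arcn1*, *Ran*, *Usp7*, *Hsf2bp*, *Pomp*, *Capn7*, *Cdc42*, *Anln*, *Atp6v1h*, *Suv39h2*, *Gpbp1*, *Asf1a*, *Fam122b* and *Pdp1*. The interval covers counting error only, because amplified reads are not independent molecules.

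**Figure D4:**
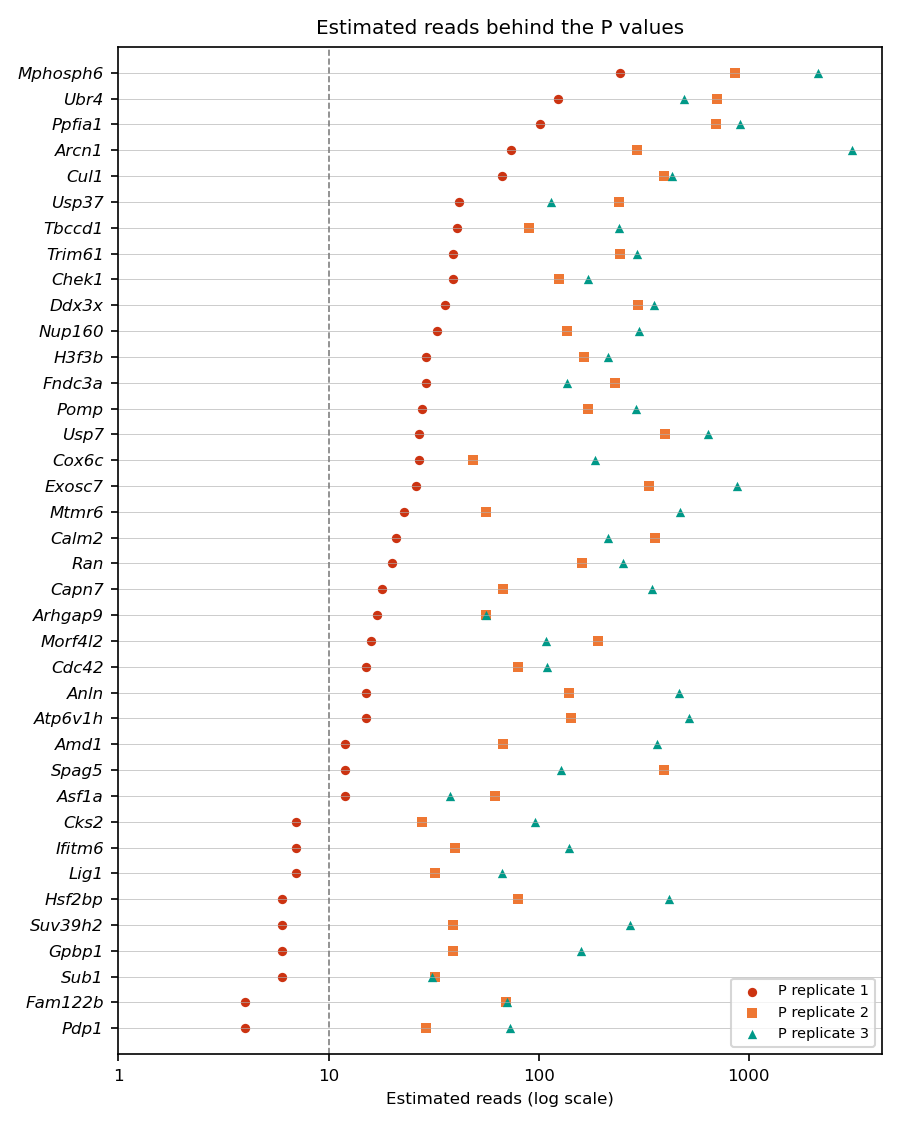
Estimated reads behind the FPKM of each member in P replicates 1, 2 and 3 (circles, squares and triangles; x axis on a log scale), ordered by the reads in P replicate 1. The dashed line marks 10 reads, and 9 members have a circle to its left, down to *Pdp1* and *Fam122b* with 4 reads.

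Reads of some members could be shared with other genes, because how the authors counted reads that map more than once, and whether strand was used, is not given in the sources used here. For 25 members no other annotated gene matched their transcript at 95% identity or more over at least 200 bases, and for 13 at least 1 did. *Amd1* was the extreme, with 5 such genes, of which *Amd2* matched over 3202 bases at 99.6% identity, so its level cannot be assigned to *Amd1* alone. Processed pseudogenes matched *Mphosph6* (458 bases), *Calm2* (447), *Cks2* (240), *Arcn1* (1692), *Ran* (662), *H3f3b* (405), *Usp7* (316), *Morf4l2* (803) and *Cox6c* (231). Overlapping genes accounted for the matches of *Gpbp1*, *Asf1a* and *Lig1*. Exons of *Asf1a* overlapped *Mcm9* on the opposite strand over 48.0% of their length, and those of *Gpbp1* overlapped *Gm49496* on the same strand over 20.4%.

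Transcript features were not used by the rule, although FPKM depends on length. All 38 members were protein-coding, but predicted genes had been left out by name, and *Gm8394*, *Gm10036* and *Gm15564* among them met the values. In the longest coding transcript of each gene, the median length was 3138 bases in the members, 2690 in the genes with a lowest P value above 5 FPKM and 2534 in genes of the exchanged rule. Among genes with an annotated 3′UTR, its median was 925 bases in the members, 825 in the genes above the floor and 679.5 in genes of the exchanged rule, and that of annotated 5′UTRs was 228, 168 and 161 bases. Median GC content of the 3′UTR was 39.2% in the members, 46.5% in the genes above the floor and 47.9% in genes of the exchanged rule.

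An element TTTTAT or TTTTAAT lay in the last 100 bases of the 3′UTR in 8 of the 37 members with an annotated 3′UTR (21.6%, exact binomial 95% interval 9.83 to 38.2%), searched on the sense strand with overlaps allowed. These were *Trim61*, *Cks2*, *Ddx3x*, *Amd1*, *Spag5*, *Tbccd1*, *Anln* and *Suv39h2*. The share was 19.97% of the genes above the floor, 17.1% of all genes and 15.2% of genes of the exchanged rule. A hexamer AATAAA or ATTAAA lay in the last 40 bases in 30 of the 37 (81.1%), against 75.02% of the genes above the floor. Anywhere in the 3′UTR, an element was found in 28 of the 37 (75.7%) and in 55.2% of the genes above the floor, a count that also grows with the length and with the A and T content of a 3′UTR. The share near the end depended on the window and on the transcript taken: it was 10.8% in the last 50 bases, against 12.6% of the genes above the floor, and with the shortest coding transcript of each gene it was 15 of 38 members (39.5%, interval 24.0 to 56.6%), against 19.0% of the genes above the floor and 15.5% of all genes. A match describes the letters of the annotated transcript, and the 3′ ends used in these oocytes were not measured.

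**Figure D5:**
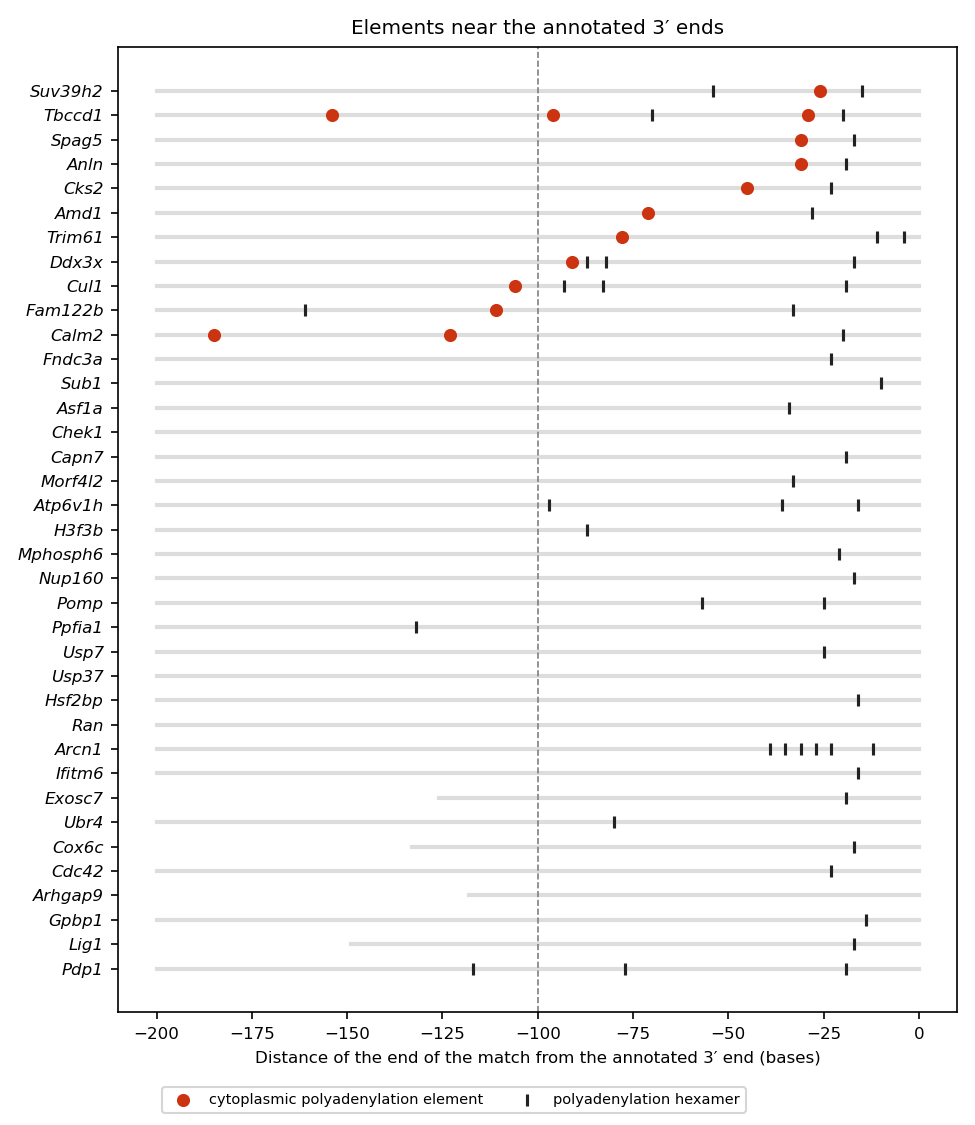
Matches in the last 200 bases of the annotated 3′UTR of the 37 members that have one (x axis, bases from the annotated 3′ end, with grey lines for the stretch annotated). Red circles are elements TTTTAT or TTTTAAT and black ticks are hexamers, the dashed line marks 100 bases, and 8 members have an element to its right.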

How the data were processed

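RNA of pooled NP and P fractions was sequenced from 6 AF libraries, 3 of each. The submitters' processing notes name Trim Galore 0.4.1 for trimming, HISAT2 2.0.5 for alignment and GRCm38 as the build. From these alignments the authors computed the deposited FPKM values in Seqmonk. Annotation, strand setting and the treatment of multiply mapped reads: not given in the sources used here. The deposited means of each fraction were not used. Of 25965 rows, 66 repeated a symbol, and the row with the highest mean was kept.

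Groups and replicates came from the labels. No test of P against NP was made, since the rule uses that contrast. Differences are on the log2(FPKM + 1) scale, which understates changes of low genes. Exon lengths and transcripts were those of GENCODE M21, matched for 24501 genes (94.6%), 1944 of them by synonym. Depth was recovered as the value at which low FPKM most often correspond to whole reads, within 0.02 reads for 59.7% to 67.3% of values per library, so depths and reads are estimates. Of the 38 members, 21 had whole reads within 0.05 in P replicate 1. On tables simulated for 24501 genes, 3 of 3 depths were recovered. For a value of 0, the limit given is the level at which 3 reads would be expected.

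Named genes are the 10 members with the highest P mean, the 10 with the largest ratio of lowest P to highest NP value (1 added), members of the pathway lists, the genes on both sides of each threshold and the 3 with the highest NP mean, with other members grouped by role once listed. The members and all lists were chosen with earlier results of these data known. Alternatives were other floors, scalings, pseudocounts, pairings, windows and transcripts, and each library left out. Sequences were compared with BLAST 2.17.0 and values with Python 3.11.15.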

Additional observations from a re-analysis of the deposited data

How the results depend on the processing

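The number of genes that met the rule depended on the scale more than on the floor. It was 38 as deposited, 51, 46 and 27 with floors of 1, 2 and 10 FPKM, and 29 with at least 10 reads in every P library. Rescaling gave 245 genes with a common FPKM sum, 278 with a median of ratios, 389 with quantile normalization and 299 with a common sum that leaves out *Lars2* and *Gm15564*. Those 2 genes held 5.05% to 9.81% of the summed FPKM in P and 0.167% to 0.3999% in NP. A gap of 2 times kept 11 genes, and the lower bound of the Poisson interval, with NP taken as exact, kept 20. Leaving out 1 library gave between 57 and 172 genes: 88, 78 and 57 without NP replicates 1, 2 and 3, and 116, 167 and 172 without P replicates 1, 2 and 3. With fewer libraries the rule can only admit more genes. With the replicate block, where each P value had only to exceed the NP value of its own number, 103 genes qualified. Deviations of same-numbered libraries from their group means correlated across 10578 genes at 0.063, 0.099 and 0.116, and those of other pairs between -0.089 and 0.021. Every library correlated best with its own number. Each sample gave both parts, but no source says in words that equal numbers mark one sample.

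The median log2 difference of the members, 2.04, was 2.29 and 1.36 with pseudocounts of 0.1 and 5, 2.86 with a common sum, 2.92 with a median of ratios, 2.99 with quantile normalization, 2.95 with the sum without *Lars2* and *Gm15564*, and between 1.47 and 2.26 with 1 library left out. The median of all genes moved from -1.03 to -0.50, -0.43, -0.26 and -0.42 under these 4 scalings. The rule and these scalings, which lift P against NP, both bear on the direction of the members, so its persistence is no sign of stability. Over 12 alternatives, 95 of the 456 differences of single members moved by more than the spread between replicates. The share with an element near the end, 21.6%, was 39.5% with the shortest coding transcript. A floor of 1 FPKM raised the members of pathway lists from 7 to 9, adding *Anapc10* and *Atrx*. The read minimum of 10, the sum without 2 genes and the Poisson bound are alternatives added after seeing the data. Depth limits P replicate 1 most.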
